A study of Mus musculus with 48 samples.

Results

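White adipose tissue (WAT) of old mice that had returned to full feeding after most of a life on dietary restriction was compared with WAT of mice that had never been restricted. The 8 libraries of this comparison were chosen by their group labels from the 48 libraries of the series, 5 of the refed group (DRAL) and 3 of the lifelong fully fed group (AL). The mice were female hybrids of the C3B6F1 cross and are labelled 26 months old. AL mice ate freely throughout. DRAL mice were restricted from 12 weeks of age to 60% of the AL intake and were put back on full feeding at 24 months. Both groups were therefore fully fed at death and differed in what they had eaten before. Of the groups used for reference, DR mice stayed on restriction from 12 weeks (3 libraries) and ALDR mice were fully fed until they were restricted at 24 months (5 libraries). Young mice were killed at 5 months, either fully fed (AL) or restricted to 60% of that intake from 12 weeks (labelled ALDR; 3 libraries each), and brown adipose tissue (BAT) had 3 AL and 3 DRAL libraries at 26 months. All mice were killed in the 3 h before the restricted animals would have been fed. The protocol in the labels names epididymal fat although the mice were female, so the depot is uncertain, and it gives 27 months as the age at death. The labels call the libraries biological replicates and name no cohort or preparation batch.

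WAT stores triglyceride in adipocytes and releases fatty acids and hormones such as leptin and adiponectin. It also holds macrophages. Resident macrophages carry receptors such as CD163. Macrophages that take up lipid from failing or enlarged adipocytes switch on a lysosomal and lipid-handling programme whose members include Trem2, Gpnmb, Spp1, Cd68, Itgax and Lipa.

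The 8 libraries held 15947937 to 22500246 counts, which puts 3 counts at 0.133 to 0.188 CPM. CPM are counts rescaled so that each library sums to 1000000, as used here for marker sums. For levels of single genes the library total was first multiplied by a scaling factor (TMM), 1.035 to 1.126 in these 8 libraries. Adipocyte genes were high in all 8, with Adipoq at 46715 to 82518 counts and Plin1 at 21012 to 38442. Some AL libraries carried RNA of other tissues, as the bar plots of marker sums show. Ckm, the creatine kinase gene of muscle, had 2103 counts in AL replicate 1, where the other 7 libraries had 0 to 37, and the 14 skeletal muscle markers summed to 1395 CPM there and to 26.3 to 70.9 CPM elsewhere. AL replicate 3 had 28110 counts of the liver gene Alb against 344 to 1023, and the 12 liver markers summed to 2812 CPM against 239 to 864 CPM. Its log2 CPM correlated with the other 7 libraries at 0.928 to 0.951, while all other pairs lay between 0.962 and 0.989. Among the DRAL libraries, B and plasma cell markers were high in replicates 4 and 5 (825 and 676 CPM, against 142 to 377 CPM in the rest) and mesothelium markers in replicates 1 and 4 (594 and 657 CPM, against 148 to 364 CPM). Counts of Y-linked genes did not exceed 2 in any of the 8 libraries. The part of these tissues in the results was not tested beyond the fits without those libraries or with marker scores as covariates, which are given beside the results.

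**Figure D1:**
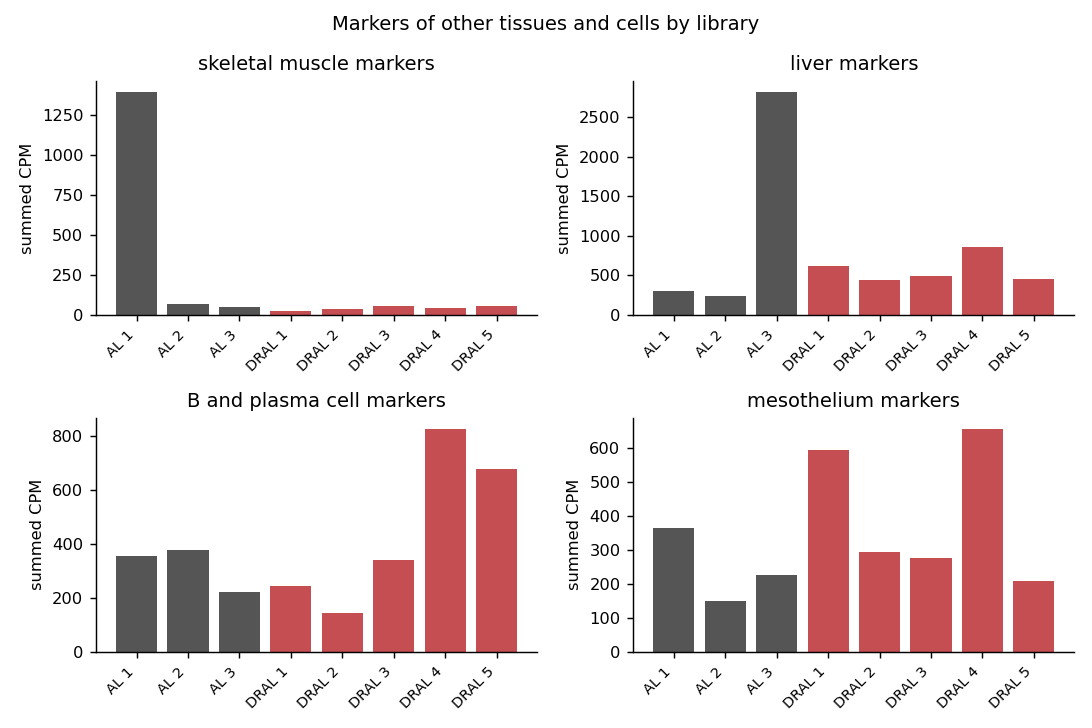
Summed CPM of the markers of skeletal muscle, liver, B and plasma cells and mesothelium (vertical axes, from 0) in each of the 3 AL and 5 DRAL libraries at 26 months (bars, 1 per library). Muscle markers reach 1395 CPM in AL replicate 1 and liver markers 2812 CPM in AL replicate 3.

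In refed WAT some macrophage and lysosome genes were lower than in lifelong fully fed WAT (5 of 18 and 6 of 26 markers, among them Trem2, Gpnmb and Lipa). Pth1r and 2 of 13 adipocyte markers, Retn and Adrb3, were higher. Without AL replicate 3, 0 macrophage and 0 adipocyte markers passed, with list medians of -0.40 and 0.37 against -0.54 and 0.25 with it. Expression differed in 344 of 15828 genes tested (2.17%) at a Benjamini-Hochberg (BH) adjusted p under 0.05 in edgeR's quasi-likelihood test. Of these, 141 were higher (0.891% of genes tested) and 203 lower (1.28%) in DRAL. The lower genes differed by more. Their median log2 fold change was -1.04, against 0.50 for the higher genes, and 107 of them lay beyond a log2 change of 1 against 15 of the higher genes. In 329 of the 344 genes the DRAL and AL libraries did not overlap, as these genes were selected for that difference (13% of all genes tested showed no overlap). The median over all genes was 0.0011 on the log2 scale. The number of calls varied with the libraries in the fit. It was 184, 61 and 115 without AL replicate 1, 2 or 3, 113, 209 and 131 without DRAL replicate 3, 4 or 5, and 101 when the other WAT groups were left out of the fit. With AL replicate 2 alone, the AL library without the large excess of muscle or liver RNA (70.9 and 239 CPM of their markers), 44 genes passed, of which 29 were among the 344. That fit has 1 AL library, which is assumed to vary like the other groups, and less power, so its counts say little about whether a call holds. The excess of lower over higher calls did not hold in every fit: 66 genes were higher and 49 lower without AL replicate 3, and 37 each way with the replicate number as a block.

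Several macrophage and lysosome genes were lower in refed than in lifelong fully fed WAT, among them genes of lipid-laden macrophages. Of 18 macrophage markers, 5 were lower (Trem2, Spp1, Gpnmb, Itgax and Cd68), 1 was higher (Cd163) and 12 did not pass. The median of the list was -0.54, against 0.0011 for all genes and -0.53 for 16 T and NK cell markers, of which 0 passed. Of 26 lysosome genes, 6 were lower (among them Atp6v0d2, Arsb, Lipa, Ctsk and Psap) and none higher, with a median of -0.37. In bulk tissue, fewer macrophages and less of these RNAs per macrophage cannot be told apart. The summed level of the 18 macrophage markers overlapped between the groups, at 8475 to 11010 CPM in AL and 8110 to 9826 CPM in DRAL. The sum does not track the single markers, since it was 7911 to 9843 CPM in DR, where the list median against AL was -1.98.

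Upstream sequences are shown for the genes of these lists that were lower in DRAL, since they differed in the same direction. The 3 motifs searched, each on both strands, were CACGTG (the E-box that TFEB and MITF also bind), TGANTCA (AP-1) and GAGGAAGT (PU.1, the myeloid factor). RefSeq promoters on GRCm38.p6, cut to the 250 bases before the start, were read for 9 of the 11 lower genes. AP-1 letters stood in 4 of the 9 (Itgax, Trem2, Cd68 and Psap), against 6.75% of 32851 promoters, and in 1 of 26 other members of both lists. The PU.1 letters stood in 1 (Spp1), against 2.44% of all promoters, and in 1 of the 26 others. The E-box stood in 0 of the 9, against 6.02% of all promoters and 6 of the 26 others. A match describes the letters and does not show a bound site. The 4 printed stretches run 5′ to 3′ along the gene, with the motif in capitals. They are Spp1 at chr5:104434861-104435110 (plus strand, PU.1 letters 113 bases before the start), Itgax at chr7:128129300-128129549 (plus, AP-1 at 56), Trem2 at chr17:48346151-48346400 (plus, AP-1 at 9) and Cd68 at chr11:69666171-69666420 (minus, AP-1 at 149 and 24), and no 2 matches overlap.
Spp1: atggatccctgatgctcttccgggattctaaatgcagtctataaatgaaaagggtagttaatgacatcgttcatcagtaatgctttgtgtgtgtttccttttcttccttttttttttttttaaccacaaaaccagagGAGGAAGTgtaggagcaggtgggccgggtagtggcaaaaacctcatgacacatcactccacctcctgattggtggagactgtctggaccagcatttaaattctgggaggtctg
Itgax: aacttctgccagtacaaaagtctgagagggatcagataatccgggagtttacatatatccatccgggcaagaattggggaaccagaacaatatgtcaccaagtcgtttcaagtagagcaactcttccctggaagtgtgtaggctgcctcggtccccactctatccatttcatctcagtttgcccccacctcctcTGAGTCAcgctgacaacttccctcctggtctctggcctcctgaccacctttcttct
Trem2: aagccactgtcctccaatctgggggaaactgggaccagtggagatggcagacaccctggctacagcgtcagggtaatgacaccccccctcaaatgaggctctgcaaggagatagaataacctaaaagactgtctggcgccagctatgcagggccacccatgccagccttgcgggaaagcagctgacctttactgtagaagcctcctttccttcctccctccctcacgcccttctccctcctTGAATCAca
Cd68: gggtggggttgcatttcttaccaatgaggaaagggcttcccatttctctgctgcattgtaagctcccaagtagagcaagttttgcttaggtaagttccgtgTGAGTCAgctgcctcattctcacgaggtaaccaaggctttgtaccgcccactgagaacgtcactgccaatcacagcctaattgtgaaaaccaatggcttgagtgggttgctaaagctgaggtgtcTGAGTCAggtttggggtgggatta

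Trem2 (ENSMUSG00000023992, chr17:48346401-48354147 on GRCm38) encodes a lipid-sensing receptor of macrophages. Its level was 61.4, 68.6 and 148 CPM in AL and 16.7, 36.9, 19.8, 24.7 and 10.4 CPM in DRAL replicates 1 to 5. Every DRAL library lay below every AL library. The means were 92.5 ± 47.8 (SD, n = 3) and 21.7 ± 9.96 CPM (SD, n = 5), a log2 difference of -2.09 ± 0.37 (SE; edgeR BH-adjusted p = 0.0107). Gpnmb, a glycoprotein of lipid-laden macrophages, was at 155, 147 and 447 CPM in AL and at 21.1, 93, 21.2, 8.78 and 15.5 CPM in DRAL. The groups did not overlap, but DRAL replicate 2 stood well above the other refed libraries. Its log2 fold change was -2.96 ± 0.63 (SE; edgeR BH-adjusted p = 0.0213). Spp1, the secreted protein osteopontin, was low in both groups, at 4.41, 4.26 and 9.24 CPM in AL and 0.166 to 1.33 CPM in DRAL (median 0.464). That difference was -3.23 ± 0.63 (SE; edgeR BH-adjusted p = 0.0147).

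Itgax, which encodes the integrin CD11c of inflammatory fat macrophages, was at 80.4, 95.4 and 184 CPM in AL and 15.2 to 53.1 CPM in DRAL (median 18.5), a log2 difference of -2.26 ± 0.52 (SE; edgeR BH-adjusted p = 0.0288). Cd68, a glycoprotein of macrophage endosomes and lysosomes, was at 79, 121 and 173 CPM in AL and 30.9 to 73.4 CPM in DRAL (median 43.4), with -1.27 ± 0.32 (SE; edgeR BH-adjusted p = 0.046). The macrophage elastase gene Mmp12, chosen after its values were seen, was at 178, 180 and 442 CPM in AL and 22.4, 110, 28.1, 5.93 and 25.6 CPM in DRAL, with -2.79 ± 0.59 (SE; edgeR BH-adjusted p = 0.0204). For all 3 genes the highest refed library was DRAL replicate 2 or, for Cd68, replicates 2 and 4. Other genes seen to be lower in the same way, and chosen for that, were Lgals3 (log2 -1.22), the scavenger receptor gene Msr1 (-0.93), the pattern receptor gene Clec7a (-1.69), Siglec1 (-1.31), the perforin-like gene Mpeg1 (-1.79), and the anaphylatoxin receptor genes C5ar1 (-1.08) and C3ar1 (-1.32). So were 3 genes of cholesterol ester and lipid transfer, Nceh1 (-1.41), Soat1 (-0.87) and Pltp (-0.87). Their edgeR BH-adjusted p-values lay between 0.0112 and 0.0395.

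Not every macrophage gene followed. Cd163, the haemoglobin scavenger receptor of resident macrophages, was higher in DRAL, at 161, 157, 133, 180 and 87.8 CPM against 71.8, 79.1 and 53.5 CPM in AL (log2 1.08 ± 0.25, SE; edgeR BH-adjusted p = 0.0288). The groups did not overlap, with DRAL replicate 5 nearest to AL. Cd163 passed in 10 of the 17 alternative fits and was lost without any 1 of the AL libraries, without DRAL replicate 3 or 4, with AL replicate 2 alone and when only AL and DRAL were fitted. General macrophage genes did not pass (of those named, all but Adgre1 were chosen after values were seen). The complement gene C1qa differed by -0.30, the mannose receptor gene Mrc1 by -0.22, the growth factor receptor gene Csf1r by -0.44 and Adgre1, which encodes F4/80, by -0.82 (edgeR BH-adjusted p = 0.598, 0.524, 0.209 and 0.144). Lpl and Tyrobp differed by 0.22 and -0.82 (edgeR BH-adjusted p = 0.589 and 0.122). Timd4 and Lyve1, genes of resident macrophages also chosen after values were seen, were at 0.97 and 0.56 (edgeR BH-adjusted p = 0.152 and 0.405). In a list of 12 resident macrophage genes put together after values were seen, 9 were positive, 1 passed and the median was 0.27. Without DRAL replicate 4 the median was 0.051. That library had Timd4 at 48.4 CPM and Lyve1 at 96.4 CPM, against 15 to 20.4 CPM and 32.5 to 60.3 CPM in the other DRAL libraries. In a list of 22 genes of lipid-associated macrophages made in the same way, 16 were negative and 6 positive, and the median was -0.52. Of the 22, 9 passed as lower and 13 did not pass. Of this list 0 passed without AL replicate 3 or with AL replicate 2 alone, 1 when only AL and DRAL were fitted, 3 with the replicate block and 4 without DRAL replicate 3 or 5. The median stayed below 0 in these fits, at -0.43, -0.43, -0.54 and -0.58 in the first 4 and -0.51 and -0.47 in the last 2.

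Among the lysosome genes, Atp6v0d2, a proton pump subunit of macrophages and osteoclasts, was at 29.8, 36.2 and 96.3 CPM in AL and 2.58, 16.6, 3.95, 1.98 and 2.73 CPM in DRAL. The log2 fold change was -3.28 ± 0.61 (SE; edgeR BH-adjusted p = 0.0124), and DRAL replicate 2 again stood above the rest. Lipa, the acid lipase that frees cholesterol and fatty acids in lysosomes, was at 209, 233 and 425 CPM in AL and 102 to 177 CPM in DRAL (median 119), with -1.12 ± 0.22 (SE; edgeR BH-adjusted p = 0.0159). Ctsk, a collagen-degrading cathepsin, differed by -0.96 ± 0.21 and Psap, the precursor of the saposins, by -0.68 ± 0.14 (SE; edgeR BH-adjusted p = 0.0257 and 0.0182). The lysosomal membrane genes Lamp1 (0.07) and Lamp2 (0.0035) did not pass. Of 20 proton pump subunits tested, a list chosen after values were seen, 3 were lower (Atp6v0d2, Tcirg1 and Atp6v0c) and 0 higher, and the median was 0.036. Without AL replicate 3, or with AL replicate 2 alone, 0 passed, and the median ran from -0.12 without AL replicate 2 to 0.17 without AL replicate 3. Atp6v0c passed in 4 of the 17 alternative fits.

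**Figure D2:**
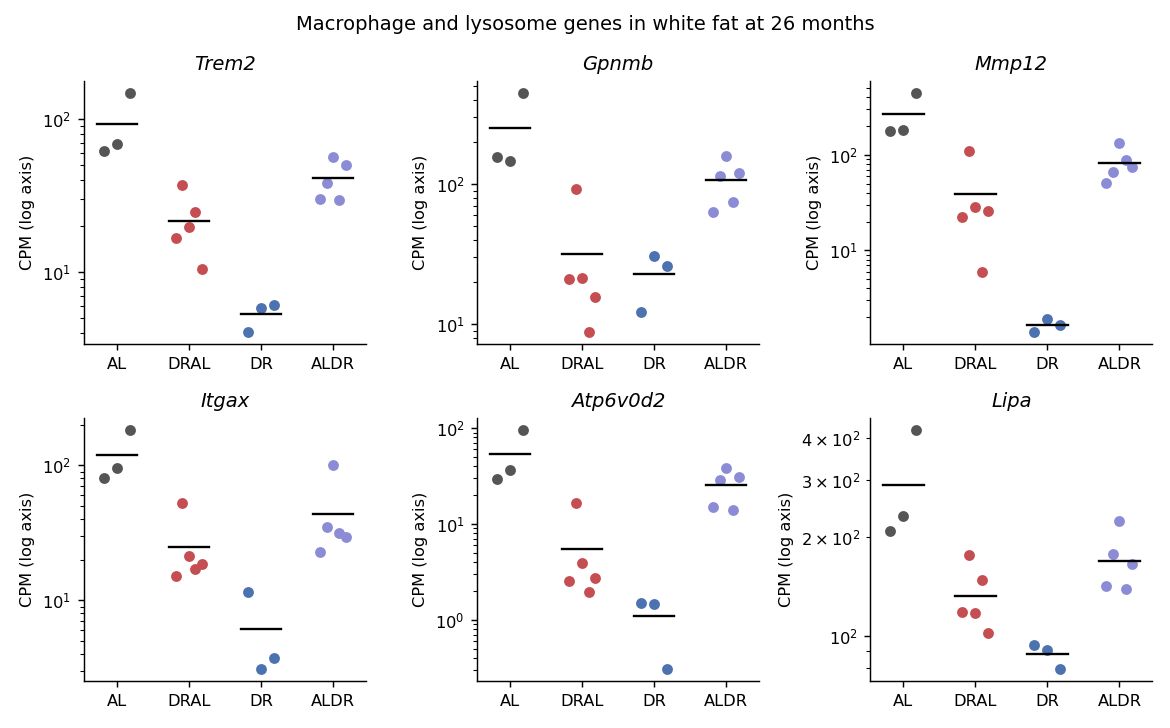
CPM on log axes of 6 macrophage and lysosome genes in the AL, DRAL, DR and ALDR libraries of WAT at 26 months (points, 1 per library; lines, group means). For each gene all 5 DRAL libraries lie below all 3 AL libraries, and AL replicate 3 lies above every other library shown.

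AL replicate 3, the library with liver RNA, had the highest level among the 8 libraries of each lower macrophage or lysosome gene named so far except Arsb and Siglec1, which were highest in AL replicate 2. Without it, 0 of the 18 macrophage markers passed as lower and the list median was -0.40. The adjusted p of Trem2, Gpnmb and Spp1 was then 0.0547, 0.0854 and 0.0557 (edgeR, BH). Mmp12 (0.0776) and 8 of the 10 genes named with Lgals3 also lost the call (0.0671 for C5ar1 to 0.149 for Lgals3 and Soat1; edgeR, BH), and Siglec1 and Mpeg1 did not. Without AL replicate 1, 5 markers passed as lower and the median was -0.65. With muscle and liver scores as covariates 4 macrophage markers passed as lower, with a median of -0.59. With AL replicate 2 alone the median was -0.60. Calls were also lost in other fits. Without DRAL replicate 3 or 5, or with the replicate block, 2 passed as lower (medians -0.469, -0.404 and -0.625). When only AL and DRAL were fitted 1 did (-0.554). Of the 26 lysosome genes 1 passed without AL replicate 3 (median -0.22) and 7 with both scores as covariates (median -0.30). The replicate block left 3 (-0.39) and the fit of only AL and DRAL 1 (-0.38). With AL replicate 2 alone the median was -0.22. Lysosomal membrane genes outside the list, chosen after values were seen, went both ways. Mfsd8 was higher (0.53) and Atp13a2 (-0.58) and Slc11a1 (-1.09) lower (edgeR BH-adjusted p = 0.0321, 0.0135 and 0.0309). All were lost without AL replicate 3.

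Each of these genes can be read beside the groups on the other diets. Trem2 was at 5.33 ± 1.11 CPM in DR (SD, n = 3) and 41 ± 12.1 CPM in ALDR (SD, n = 5), so DRAL lay between AL and DR. Mmp12 was at 1.66 ± 0.271 CPM in DR against 38.5 ± 41.2 CPM in DRAL, and Itgax at 6.16 ± 4.72 CPM against 25 ± 15.9 CPM. DRAL against DR called 30.5% of genes tested, 14.6% higher and 15.9% lower. DRAL was higher than DR for Trem2, Mmp12 and Itgax, at 2.03, 4.52 and 2.03 on the log2 scale (edgeR BH-adjusted p = 0.00215, 0.000629 and 0.0166). Gpnmb and Spp1 differed between DRAL and DR by 0.48 and -0.16 (edgeR BH-adjusted p = 0.614 and 0.883). DRAL against DR and DR against AL share libraries with DRAL against AL, so these values are given side by side only.

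Adipocyte genes that were higher in refed than in lifelong fully fed WAT differed by about 2-fold or less. Pth1r, the receptor of parathyroid hormone, was at 22.6, 20.7 and 15.6 CPM in AL and 45.4, 33.7, 45.6, 43.4 and 30.1 CPM in DRAL. No libraries overlapped, and the log2 fold change was 1.01 ± 0.16 (SE; edgeR BH-adjusted p = 0.00503). It passed in 16 of the 17 alternative fits. Retn, which encodes the adipocyte hormone resistin, was at 371, 496 and 373 CPM in AL and at 1033, 652, 851, 1042 and 706 CPM in DRAL (log2 1.05 ± 0.22, SE; edgeR BH-adjusted p = 0.0182). Adrb3, the β3-adrenergic receptor through which sympathetic nerves drive lipolysis, was at 98.4, 91 and 138 CPM in AL and 158 to 266 CPM in DRAL (median 205), with 0.94 ± 0.23 (SE; edgeR BH-adjusted p = 0.0423). For Retn and Adrb3 the groups did not overlap either. Against DR, DRAL was lower for Pth1r, Retn and Adrb3, at -0.97, -0.65 and -0.90 on the log2 scale (edgeR BH-adjusted p = 0.000135, 0.022 and 0.00543). Without AL replicate 1 or 3 neither passed, at 0.0675 and 0.0652 for Retn and 0.119 and 0.0533 for Adrb3 (edgeR BH-adjusted p).

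The insulin signalling genes Akt2 and Pik3r1 passed with small differences of 0.45 ± 0.11 and 0.44 ± 0.11 (SE; edgeR BH-adjusted p = 0.0323 and 0.0466). They were 2 of 16 genes in the list of insulin and glucose uptake, whose median was 0.11. Akt2 passed in 8 and Pik3r1 in 6 of the 17 alternative fits, and both were lost without AL replicate 1 or 2 and when only AL and DRAL were fitted. Of 16 genes of branched-chain amino acid breakdown, Dbt (0.29) and Acadsb (0.34) were higher and the cytosolic transaminase gene Bcat1 was lower (-1.43 ± 0.24, SE; edgeR BH-adjusted p = 0.0088). Bcat1 stood at 9.31, 6.7 and 14.3 CPM in AL and 2.5 to 4.89 CPM in DRAL (median 3.66). Bcat1 passed in 15 of the 17 alternative fits, but Dbt in 3 and Acadsb in 4, and both were lost without any 1 of the AL libraries. Of 13 mature adipocyte markers 11 were positive, 2 passed (Retn and Adrb3) and the median was 0.25. The summed level of those markers was 29470 to 32820 CPM in AL and 36600 to 40680 CPM in DRAL, without overlap, and its part in the adipocyte results was not tested.

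Few genes of the mitochondrial lists passed, but most members leaned one way. Signs in lists chosen after values were seen describe those lists and test nothing. In a list of respiratory chain and ATP synthase subunits, chosen after values were seen, 82 of 83 were positive, with a median of 0.36, while 50.2% of all genes tested were positive. Only 2 passed (Uqcrq at 0.87 and Uqcr11 at 0.68, both subunits of complex III), and 58 had an unadjusted p under 0.05, which 19.7% of all genes had. The single negative member was Cox6a2, the muscle isoform (-2.59, edgeR BH-adjusted p = 0.339). In a list of 77 mitochondrial ribosomal protein genes, also chosen after values were seen, 75 were positive, 1 passed (Mrps23 at 0.39) and the median was 0.24. DESeq2 called 14 of the respiratory and 9 of the ribosomal genes as higher, while 0 of either list passed in edgeR without AL replicate 1 or 2. The median of the respiratory list was 0.35, 0.24 and 0.47 without AL replicate 1, 2 or 3, and 0.60 with AL replicate 2 alone. Of 79 cytosolic ribosomal protein genes, another list chosen in that way, 67 were positive as well, with a median of 0.13 and 0 called. Of the 13 mitochondrially encoded transcripts 12 were positive, with a median of 0.445 and 0 called. Their sum overlapped between the groups, at 4370 to 7272 CPM in AL and 5070 to 9191 CPM in DRAL.

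Uqcrq itself was at 14, 14.9 and 15.9 CPM in AL and 28.3, 22, 29.7, 34.5 and 21.9 CPM in DRAL (log2 0.87 ± 0.18, SE; edgeR BH-adjusted p = 0.0174). Uqcrq and the next 3 genes, Etfrf1, Chpt1 and Car5b, were chosen after their values were seen. Etfrf1, a regulator of the electron transfer flavoprotein of fatty acid oxidation, was at 29.4, 29.1 and 34 CPM in AL and 43 to 49.8 CPM in DRAL (median 47.1). Its difference of 0.60 ± 0.09 (SE; edgeR BH-adjusted p = 0.00408) passed in all 17 alternative fits. Chpt1, an enzyme of phosphatidylcholine synthesis, was at 797, 726 and 1023 CPM in AL and 1327 to 1840 CPM in DRAL (median 1456), with 0.84 ± 0.15 (SE; edgeR BH-adjusted p = 0.0112). Car5b, the mitochondrial carbonic anhydrase, was at 279, 268 and 299 CPM in AL and 412 to 539 CPM in DRAL (median 526), with 0.85 ± 0.17 (SE; edgeR BH-adjusted p = 0.0169). These groups did not overlap.

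**Figure D3:**
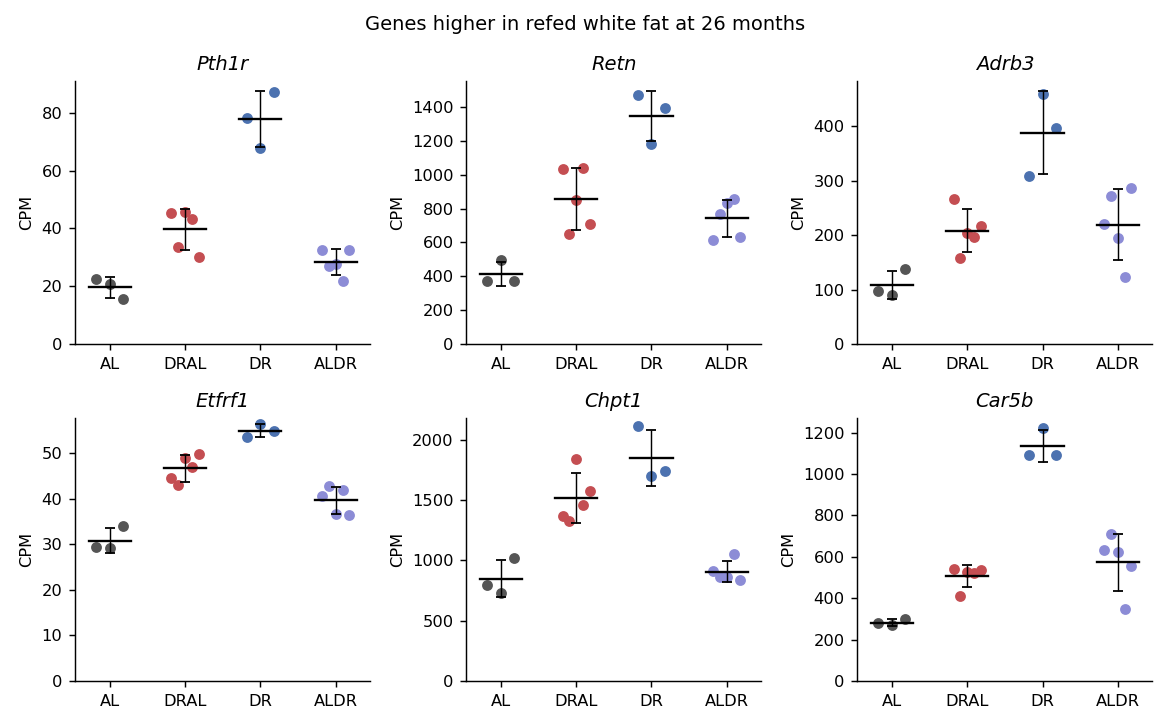
CPM (axes from 0) of 6 genes that were higher in refed than in lifelong fully fed WAT at 26 months, with DR and ALDR alongside (points, 1 per library; lines, means; bars, SD). The 5 DRAL libraries lie above the 3 AL libraries for each gene, and the DR mean is the highest of the 4 groups for each.

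Several genes with larger upward differences were at low levels. Slc9a2, a sodium-proton exchanger, had 1 to 5 counts in the AL libraries and 20 to 97 in DRAL. With so few AL counts, the size of its log2 difference of 4.18 ± 0.86 (SE; edgeR BH-adjusted p = 0.018) is uncertain. Ncam2, a neural adhesion molecule, was at 0.415 to 0.682 CPM in AL and 1.45 to 3.14 CPM in DRAL, and Ntsr2, a neurotensin receptor, at 0.398 to 1.35 CPM and 1.57 to 2.9 CPM. Both had no overlap, with log2 2.00 ± 0.44 and 1.55 ± 0.32 (SE; edgeR BH-adjusted p = 0.026 and 0.0179). Dock3 (2.01), Slc15a5 (1.98), Kcnj15 (1.39), Hephl1 (2.31) and Orm3, an acute phase glycoprotein (1.40), also passed. Most of these calls were lost in several fits. Kcnj15 and Hephl1 passed in 5 of the 17 alternatives, Orm3 in 8, Dock3 and Slc15a5 in 9, Ncam2 in 11 and Ntsr2 and Slc9a2 in 14. Kcnj15, Orm3, Slc15a5 and Ncam2 were lost without any 1 of the AL libraries. Vmn2r26 had 1 count in each AL library and 4 to 25 in DRAL, so no fold change is given.

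Among the lower genes, Fat3, a large cadherin, was at 11.6, 13.6 and 24.8 CPM in AL and 1.08 to 2.71 CPM in DRAL (median 1.39), a log2 difference of -3.39 ± 0.39 (SE; edgeR BH-adjusted p = 0.000358) that passed in all 17 alternative fits. Tnfaip2, which TNF induces, was at 55.3, 56.9 and 67.9 CPM in AL and 22.1 to 33.1 CPM in DRAL (median 29.4), with -1.13 ± 0.15 (SE; edgeR BH-adjusted p = 0.00184). Slc15a3, a lysosomal peptide and histidine transporter of immune cells, was at 18.5, 23.5 and 35.8 CPM in AL and 5.78 to 9.05 CPM in DRAL (median 6.73), with -1.83 ± 0.26 (SE; edgeR BH-adjusted p = 0.00287). None of the 3 had overlapping groups. The others named by the same rule were Slc37a2, a sugar phosphate transporter of macrophages (-1.57), the annealing helicase gene Zranb3 (-1.85), the chromatin protein gene Hmga1 (-1.20), the kinase gene Cdk18 (-2.14) and the myosin gene Myh15 (-4.61). The chemokine gene Cxcl14 (-1.16), the adhesion molecule gene Icam1 (-0.54) and the metallothionein gene Mt2 (-1.29) were lower and belonged to the gene lists. Mt2 passed in 2 and Cxcl14 and Icam1 each in 7 of the 17 alternative fits, and all 3 were lost without any 1 of the AL libraries.

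A group of 8 provisional genes was lower in DRAL, where most of them were at 0 in several libraries, so no fold change is given. They lie on chromosomes 2, 9 and 14, and 33.8% to 78.4% of the 31-base words of their transcripts occur in another of the 8, so reads may be shared between them and their values are uncertain. Together they had 187, 74 and 17.5 CPM in AL and 0.232 to 2.5 CPM in DRAL (median 0.425). They also varied widely within groups, at 30.65 to 878 CPM in young AL, 55.05 to 470.2 CPM in young ALDR, 0.185 to 12.3 CPM in DR and 0.0657 to 1.42 CPM in ALDR at 26 months.

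Leptin, fatty acid synthesis and clock genes did not pass. Lep, which encodes leptin, was at 2700, 1978 and 2290 CPM in AL and 1703 to 2802 CPM in DRAL (median 2559), a log2 difference of -0.02 ± 0.41 (SE; edgeR BH-adjusted p = 0.986). Lep was at 284 ± 17.1 CPM in DR (SD, n = 3), and DRAL was higher than DR by 3.01 on the log2 scale (edgeR BH-adjusted p = 0.000215). Of 14 fatty acid synthesis genes 0 passed, although all 14 were positive, 8 had an unadjusted p under 0.05 and the median was 0.79. Fasn, the fatty acid synthase gene, illustrates the spread. It was at 2137, 1789 and 3461 CPM in AL and 4987, 2034, 6939, 1795 and 5112 CPM in DRAL, with 0.76 ± 0.39 (SE; edgeR BH-adjusted p = 0.294). DRAL replicates 2 and 4 lay within the AL range. Elovl6, a fatty acid elongase gene, was nearest to the threshold, at 1.76 ± 0.53 (SE; edgeR BH-adjusted p = 0.0822), and DESeq2 called 3 of the 14. Of 19 clock genes 0 passed, with Arntl at -0.22 (edgeR BH-adjusted p = 0.491) and a list median of 0.058. Adipoq, the adiponectin gene, was at 2334, 2654 and 2838 CPM in AL and 3315 to 3596 CPM in DRAL (median 3433), without overlap but short of the threshold at 0.40 ± 0.12 (SE; edgeR BH-adjusted p = 0.0816).

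**Figure D4:**
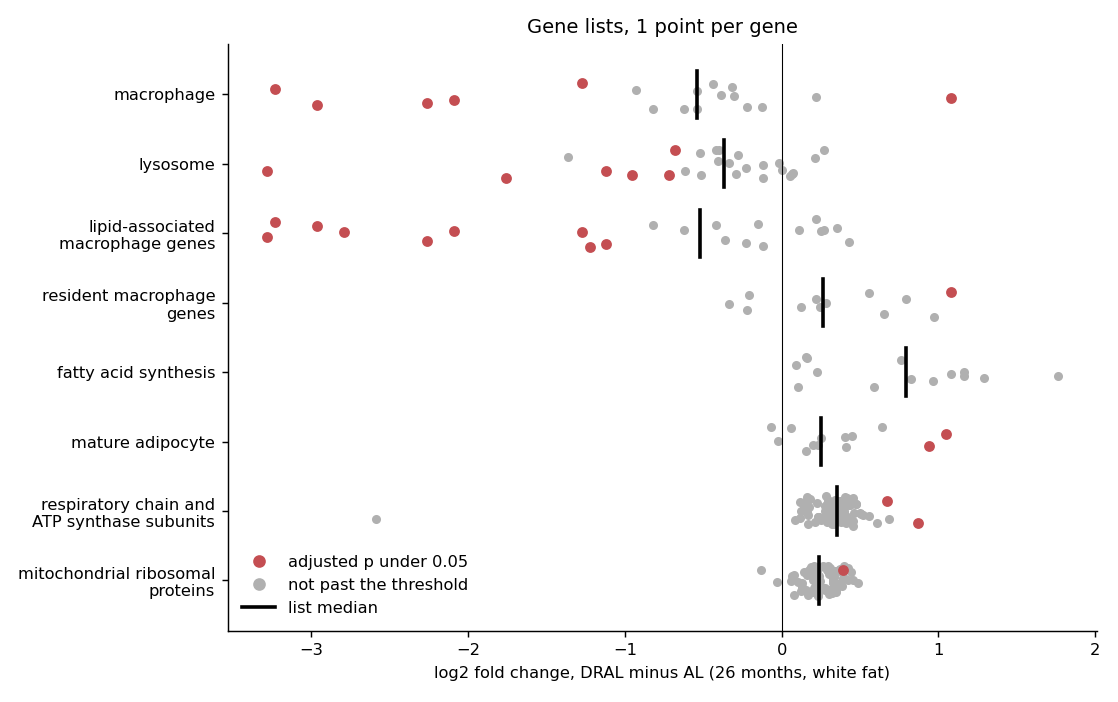
Log2 fold change of DRAL minus AL (horizontal axis) for the members of 8 gene lists (rows; 1 point per gene; thick lines, list medians; red, edgeR BH-adjusted p under 0.05). The macrophage and lysosome medians are -0.54 and -0.37, and the respiratory chain median is 0.36 with 82 of 83 members above 0.

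The remaining lists held few calls. None passed among 15 genes of triglyceride synthesis and uptake (median 0.25), 20 of cholesterol synthesis (0.25), 12 of thermogenesis (-0.07), 24 of collagens and matrix (-0.21), 16 interferon-stimulated genes (-0.18), 9 of antigen presentation (-0.42), 17 of proliferation (-0.12) and 13 of senescence and growth arrest (0.12). None of 16 T and NK cell markers passed, although all 16 were negative with a median of -0.53. Of 15 immediate early and heat shock genes, which also respond to handling, 1 passed (Dnajb1, a co-chaperone, at 0.35, which passed in 3 of the 17 alternative fits), 13 were negative and the median was -0.30. Their sum was 627 to 798 CPM in AL and 602 to 683 CPM in DRAL.

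Mice that were restricted at death but differed in earlier diet were compared as DR against ALDR, which shares no library with DRAL against AL. That comparison called 2021 genes (12.8% of those tested), 6.96% higher and 5.81% lower in DR. Muscle RNA was uneven in these libraries too, with marker sums of 429, 5851 and 17280 CPM in DR and 4337 and 1539 CPM in ALDR replicates 2 and 5, against 19 to 34 CPM in the other ALDR libraries. Liver markers summed to 1860 to 2609 CPM in DR and 316 to 3776 CPM in ALDR. Their part in this comparison was not tested. Of the 344 genes, 261 (75.9%) had the same direction in it, against 55.7% of the genes not called, and 128 were called in both with the same sign. Those 128 made up 37.2% of the 344 and 6.33% of the 2021. In 36 of the 344 genes (10.5%) every library of the groups restricted early in life (DRAL and DR) lay on one side of every library of the groups fed fully early (AL and ALDR), whatever the late diet. Over all genes tested 0.417% did so, which is no reference for the 344, since these were chosen for a difference between DRAL and AL and most already had no overlap there. Of the 36, 22 were higher after early restriction, among them Etfrf1, Chpt1, Ntsr2, Ncam2, Dock3, Bola3, Timm13, Orm3, Ptger3 and Hephl1, and 14 were lower, among them Fat3, Tnfaip2, Bcat1, Runx2, Cxcl14 and Mt2. Ptger3, a prostaglandin E2 receptor gene of adipocytes chosen after its values were seen, was at 114 to 142 CPM in DRAL and 97.8 to 136 CPM in DR, against 46.4 to 81.2 CPM in AL and 34.3 to 81.5 CPM in ALDR. Fat3 was at 1.1 to 1.58 CPM in DR and 2.95 to 7.47 CPM in ALDR.

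**Figure D5:**
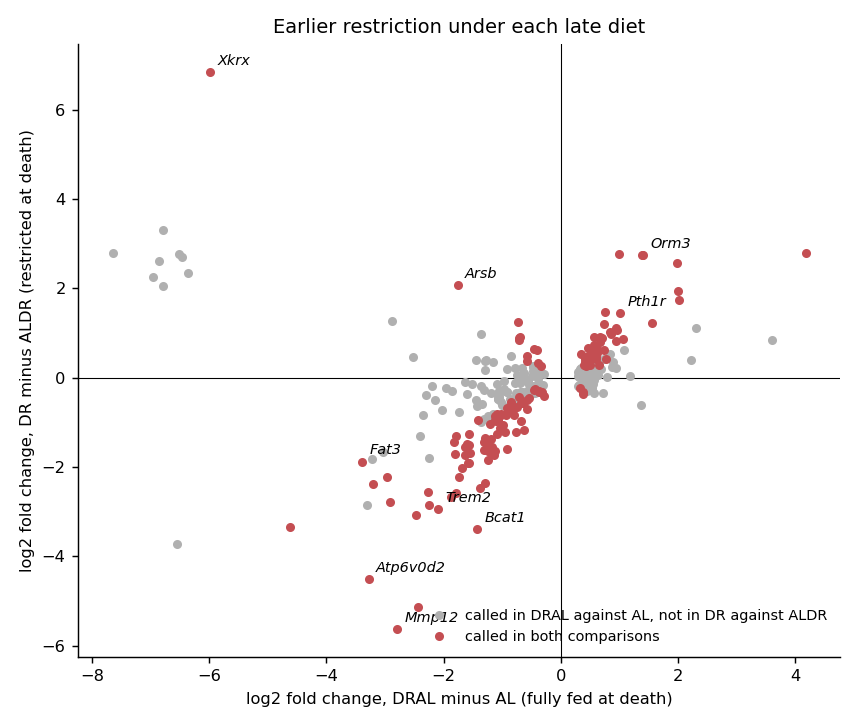
Log2 fold change of DRAL minus AL (horizontal axis, mice fully fed at death) against that of DR minus ALDR (vertical axis, mice restricted at death) for the 344 genes called in the first (points; red, called in both). Most points lie in the lower left and upper right, and Arsb and Xkrx lie in the upper left.

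The difference between these 2 comparisons was tested as an interaction, which called 340 genes (2.15%), with 152 positive (0.96%) and 188 negative (1.19%). This number fell to 28 with a muscle score as covariate and ranged from 73 without DR replicate 2 to 561 without DR replicate 1. In 15 genes both comparisons passed with opposite signs. Arsb, a lysosomal sulfatase gene (chr13:93771630-93943016), was at 76.4, 130 and 106 CPM in AL and 27 to 32.7 CPM in DRAL (median 32.2), a log2 difference of -1.76 ± 0.19 (SE; edgeR BH-adjusted p = 0.000358). In DR it was at 92.1 to 135 CPM and in ALDR at 23.6 to 28.9 CPM, so DR exceeded ALDR by 2.08 ± 0.20 (SE; edgeR BH-adjusted p = 4.29e-06). Xkrx, a scramblase-family gene on the X chromosome, behaved likewise, at 26.1 to 46.3 CPM in AL, 39.4 to 66 CPM in DR, 0.266 to 0.986 CPM in DRAL and 0.152 to 0.908 CPM in ALDR. Its difference between DRAL and AL was -5.98 ± 0.72 (SE; edgeR BH-adjusted p = 0.000469). Both genes were low in both groups whose diet had been switched and high in both that had not. In the young groups Arsb was at 45.3 to 87.6 CPM and Xkrx at 0.846 to 34.6 CPM. All 10 switched libraries lay on one side of all 6 unswitched ones in 15 of the 344 genes (4.36%), where the same selection applies (0.234% of all genes did so), and in 9 of these the switched groups were lower. A change of diet and any separate handling of the switched groups cannot be told apart here.

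Restriction of young mice gave a further disjoint set of libraries. At 5 months, 4619 genes (29.2%) were called between ALDR and AL, of which those higher in ALDR made up 14.8% and those lower 14.4% of genes tested. Of the 344 genes, 290 (84.3%) had the same direction there, against 58.9% of genes not called, and 178 were called in both with the same sign, which was 51.7% of the 344 and 3.85% of the 4619. The lower genes included Mmp12 (-6.61), Atp6v0d2 (-4.77), Itgax (-4.64), Spp1 (-4.17) and Gpnmb (-3.92), and the higher ones Pth1r (1.92), Adrb3 (1.48), Car5b (1.54) and Retn (1.12). Siglec1 (0.15) and Cxcl14 (-0.12), both lower in refed old WAT, did not pass in young mice (edgeR BH-adjusted p = 0.742 and 0.803).

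In BAT the same comparison of DRAL with AL, 3 libraries against 3, called 0 of 13845 genes (0%) with edgeR, while 656 (4.74%) had an unadjusted p under 0.05 and DESeq2 called 6. Of the 310 genes of the WAT set that were tested in BAT, 197 (63.5%) had the same direction there, against 55.7% of the other genes. Median BAT changes were 0.049 for those higher in WAT and -0.066 for those lower. Trem2 differed by -0.34 in BAT, Lipa by -0.37, Pth1r by 0.56 and Bcat1 by -2.13 (edgeR BH-adjusted p = 1, 1, 1 and 0.751). By their labels, BAT libraries were made from polyadenylated RNA and WAT libraries from RNA depleted of ribosomal RNA, and the WAT comparison had more DRAL libraries. Whether the response of WAT and BAT differed was not tested.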

How the data were processed

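RNA sequencing of WAT and BAT was deposited by the authors as raw counts per gene, with each tissue in its own table. Per the submitters' processing notes, Trim Galore 0.3.7, TopHat2 2.0.14, DESeq2 and build GRCm38 were used; the counting program and annotation are not given in the sources used here. Symbols were found for 25012 of 25913 gene IDs, and gene coordinates are GRCm38. Here all 22 WAT libraries (6 groups) were fitted together with edgeR 4.0.16 (limma 3.58.1, R 4.3.3): TMM scaling, a filter on low counts by group, the quasi-likelihood test and BH adjustment over all 15828 genes at 0.05. BAT was fitted separately over its 20 libraries. CPM of single genes and of the 8 provisional genes together use the total of the tested genes times its TMM factor. Marker sums and the 3-count floor use the full library total. Precision is limited by the 3 AL libraries. DESeq2 1.42.0, other scalings and filters, marker covariates and fits without each library were alternatives. Within-group library pairs all differed beyond counting noise. The test was run on simulated data for this comparison (15684 genes). It recovered 8%, 60%, 94% and 98% of 50 genes each changed by 0.5, 1, 2 and 3 on the log2 scale, with 5 false calls. The simulation drew genes independently, with a spread set by their level and no library with excess RNA of other tissues. Its shares therefore do not carry over to the real libraries.

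Genes were named by rule: up to 12 in each direction with the smallest adjusted p, a log2 change of at least 1, no overlap and a non-provisional symbol, then every called gene of the lists and a set named whatever its result. The members and lists were chosen with earlier results of these data known, and further genes and lists after values were seen; the report says where. Replicates are those of the labels, and p-values measure the spread between them. Liver was not used here. The values of 1 called gene of the lists are not reported here. Figures were drawn with matplotlib 3.10.9.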

Additional observations from a re-analysis of the deposited data

Results flagged for a closer look

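In 12 of 112 gene and group combinations tested, 1 of the 5 DRAL libraries lay apart from the other 4 by Dixon's criterion (gap over range above 0.71). Chance gives about 1 in 20 for independent values with a normal spread. That rate is no reference here, since many of the genes were chosen for their values and several vary together. DRAL replicate 2 was the highest for Gpnmb (93 CPM), Mmp12 (110 CPM), Itgax (53.1 CPM), Atp6v0d2 (16.6 CPM), Fat3 (2.71 CPM) and Myh15 (2.18 CPM), and the lowest for Car5b (412 CPM) and Oscp1 (12.3 CPM). DRAL replicate 4 was the highest for Timd4 (48.4 CPM), Ucp1 (51.1 CPM) and Ckm (1.8 CPM), and DRAL replicate 5 for Dbt (72.5 CPM).

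For 20 genes the difference between DRAL and AL departed from that between DR and ALDR in the edgeR interaction test. Of these, 15 were chosen because both comparisons passed with opposite signs, which makes an interaction likely by selection, and the other 5 (Zranb3, Bcat1, Dbt, Dnajb1 and Selenot) are among the named genes. The interaction was negative on the log2 scale for Xkrx (-12.8), Arsb (-3.83), Zadh2 (-1.97), Lig4 (-1.61), Pfdn2 (-1.6), Zranb3 (-1.56), Acsf2 (-1.55), Atp6v0c (-1.11), Ncl (-1.06), Srp68 (-1.04), Mov10 (-0.942), Adh1 (-0.713) and Ppp6r2 (-0.602). It was positive for Bcat1 (1.96), F11r (0.724), Snap23 (0.699), Tmem234 (0.563), Dnajb1 (0.554), Dbt (0.464) and Selenot (0.403).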

How the results depend on the processing

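The 344 genes called in WAT became 917 with DESeq2, 101 when only AL and DRAL were fitted and 44 with AL replicate 2 alone, an alternative added after seeing the data; with the replicate number as a block (the replicate block), 74 were called. Same-numbered AL and DRAL libraries deviated together at 0.19, -0.066 and 0.022. These values are too few to show whether the numbers pair libraries. Leaving out 1 library gave 61 (AL replicate 2) to 358 (DRAL replicate 2) calls, with 184 and 115 without AL replicates 1 and 3 and 113, 209 and 131 without DRAL replicates 3, 4 and 5. Other scaling, filters and covariates gave 268 to 412, the fit with muscle and liver scores being added after seeing the data. The 340 interaction calls became 900 with DESeq2, 200 without a filter on low counts, 41 with the replicate block and 28 with a muscle score, and 73 (without DR replicate 2) to 561 (without DR replicate 1) over single libraries. It lay between 106 and 215 without DRAL replicate 2, 3 or 5, any AL replicate, DR replicate 3 or ALDR replicate 3, 4 or 5. In BAT, DESeq2 called 6 genes, the replicate block 0 and single libraries 0 to 1 (without DRAL replicate 3). The cause of these shifts was not tested. Of 1749 gene values over 103 genes, 1203 kept direction and call, 535 kept direction but missed the threshold, 4 newly passed and 7 changed sign. Lep (main -0.02) was 0.222 with AL replicate 2 alone and ran from -0.126 (without AL replicate 2) to 0.1 (without AL replicate 1) over single libraries, with 0.0625 and 0.0663 without DRAL replicates 1 and 4; Ucp1 (main 1.98) was -0.903 with the replicate block and ran from -1.4 (without DRAL replicate 4) to 4.83 (without AL replicate 3); Lpl (main 0.22) was -0.0466 with AL replicate 2 alone. None of these 3 genes passed in the main test. Depth limits low genes, at 0.133 to 0.188 CPM for 3 counts.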
